A study of Mus musculus with 12 samples.

Results

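Broad YY1 domains were autosomal regions in which each of the 4 YY1 ChIP-seq libraries of the study held a peak of at least 1.75 kb. Merging the peaks of the 4 libraries wherever they overlapped by 1 bp or more gave 19768 regions, 7589 autosomal regions held a peak in all 4 libraries, and 517 of these were broad domains. The members were chosen by peak width, so their widths are given as a description and nothing is tested with them. The gene of a domain was that of the protein-coding transcription start site (TSS) nearest to its centre, if within 3 kb, and otherwise that of the nearest TSS of any gene. By this rule the 517 domains had 512 distinct genes.

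Chromatin came from Lin− (lineage-negative) cells of the bone marrow of female mice aged 3 months, which are the stem and progenitor cells left after depletion of cells with markers of mature lineages. There were 2 libraries from wild-type (WT) mice and 2 from XistΔ/Δ mice, whose floxed Xist alleles were deleted by Vav-iCre, a Cre recombinase driven in blood cells by sequences of Vav1. The labels give the strain as 129Sv4/Jae x B6, and whether WT animals had the Cre transgene is not given there. Xist RNA is transcribed from the inactive X chromosome, spreads over it and brings about its silencing. At the annotated 5′ end of Xist the WT libraries had peaks of 3083 and 3222 bp, and neither XistΔ/Δ library had a peak. YY1 peaks in all 4 libraries were assigned to 7 of 10 marker genes of bone marrow progenitors, to 1 of 6 marker genes of the depleted mature cells (Ptprc, which encodes the pan-leukocyte antigen CD45) and to 0 of 5 marker genes of other tissues. Over all autosomal protein-coding genes the share was 31.8% (6608 of 20780). The progenitor markers without peaks in all 4 libraries were Kit, Cd34 and Gata2. A peak shows where YY1 chromatin was recovered and not whether the gene was expressed, so these counts do not establish the identity of the cells. The libraries held 24876456 and 50004037 tags (aligned reads as the peak caller counts them) for replicates 1 and 2 of WT, against 23141326 and 59537344 for those of XistΔ/Δ.

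YY1 (Yin Yang 1) is a ubiquitous zinc finger transcription factor that binds a short motif around the letters ATGG at promoters and enhancers and can bring distant elements together in loops. It can activate or repress and works with the INO80 chromatin remodelling complex, and in blood it is known for roles in stem cells and B cells. Many YY1 sites lie just downstream of the TSS of housekeeping genes with CpG islands, the stretches of CpG-rich sequence that mark most such promoters.

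The motif looked for here was AANATGGC, or GCCATNTT when it lies on the other strand. The sequences below show the match nearest to the TSS at promoters of broad domains, 5′ to 3′ on the strand of the gene, 30 bases each (GRCm38, from RefSeq), with the 8 letters of the match in capitals. The first 3 are those among the 12 widest domains with a match within 250 bp of the TSS, and the others were chosen after their values were seen, to show the motif in both orientations.

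Zc3h4: aggggacggccGCCATGTTgggccgggccg
Ptma: tgctccgaaaaGCCATCTTtgcattgttcc
Anp32a: agaggtggggaGCCATATTtgtaactttgt
Kmt2e: ccgtcgccgccGCCATTTTcccagagcgag
Hnrnpa2b1: atgagttattaAAAATGGCatggcgaggcc
Cox20: gaacgctccctAAGATGGCcgccgccgcgc
Ddx5: ggaggggcgagAACATGGCggattccggaa
H3f3a: cctcggtgtcaGCCATCTTtcaattgtgtt
Ncor1: ggggttgaggcAAGATGGCggctaaggtgg

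These windows lay on chr7:16401104-16401133 for Zc3h4, chr1:86526732-86526761 for Ptma, chr9:62342248-62342277 for Anp32a, chr5:23434442-23434471 for Kmt2e, chr6:51469623-51469652 for Hnrnpa2b1, chr1:178319067-178319096 for Cox20, chr11:106788626-106788655 for Ddx5, chr1:180813553-180813582 for H3f3a and chr11:62457289-62457318 for Ncor1. On the gene's strand the first base of the match lay 17 bp downstream of the TSS at Ptma, 12 bp at Kmt2e, 25 bp at Ncor1 and 204 bp at Hnrnpa2b1. It lay upstream at Cox20 (-52 bp), H3f3a (-37 bp), Zc3h4 (-92 bp), Ddx5 (-112 bp) and Anp32a (-205 bp).

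The promoter of Yy1 itself lay in a broad domain (chr12:108791821-108795944), with peaks of 3554 and 3749 bp (WT) against 3396 and 3978 bp (XistΔ/Δ). No match lay within 250 bp of the TSS that stood for it, which is 910 bp from the centre, but the domain held 4 matches. All of them lay in an intron, within 100 bases of each other and 1170 to 1260 bp downstream of the annotated 5′ end of the gene, and they are shown because they are the matches in the domain of the gene that encodes the factor itself.

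Yy1 match at 1170 bp: tttgaagggaaGCCATGTTttatgtgtgtg
Yy1 match at 1198 bp: tgatgggcgccGCCATCTTctccgcccggg
Yy1 match at 1235 bp: ggcggccccaaAAGATGGCgggggcggcgg
Yy1 match at 1260 bp: ggcgggccgcgAAGATGGCggcgcggggga

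The upstream pair lay on the other strand and the downstream pair on the strand of Yy1. The domain of Kmt2e (chr5:23431159-23436862), a SET domain gene of the MLL family, held 7 matches, spread from -2762 to 2280 bp around the 5′ end. Its widths were 4014 and 5704 bp (WT) against 4178 and 5474 bp (XistΔ/Δ).

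Broad domains held the YY1 motif at the TSS more often than the other regions did. Of the 482 domains whose centre lay within 3 kb of a protein-coding TSS, 212 (44.0%, 95% exact binomial interval 39.5% to 48.5%) had a match within 250 bp of that TSS, against 1114 of 6134 other regions with a peak in all 4 libraries (18.2%, 17.2% to 19.1%). The odds ratio was 3.54 (95% interval 2.91 to 4.30, two-sided Fisher's exact test, adjusted p = 8.59e-35 by Benjamini-Hochberg over 5 features). Regions are not replicates, and the tests describe these 4 libraries. Over all 52092 autosomal protein-coding TSSs, 10.2% of windows of the same length held the motif. At least 2 matches lay in 46 of the domain windows and in 72 of the others. The nearest match lay downstream of the TSS in 56.1% of the domain windows with a match and in 62.2% of the other windows, and within 50 bp of the TSS in 44.8% and 49.9%.

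The share with the motif was higher in wider regions on both sides of the limit, except in the widest class. It was 5.78% among regions whose smallest width over the 4 libraries was 500 to under 750 bp, 13.1% from 750 to under 1000 bp, 32.1% from 1 to under 1.25 kb and 40.2% from 1.5 to under 1.75 kb. Among the domains it was 40.4% from 1.75 to under 2 kb, 46.2% from 2 to under 2.5 kb, 56.1% (57 regions) from 2.5 to under 3 kb and 33.3% (27 regions) from 3 kb. Compared only with regions of 1.25 to under 1.75 kb, a comparison chosen after the data were examined, the domains were not shown to differ (44.0% against 39.0%, odds ratio 1.23 with interval 0.979 to 1.54, unadjusted p = 0.0694 in Fisher's exact test).

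**Figure D1:**
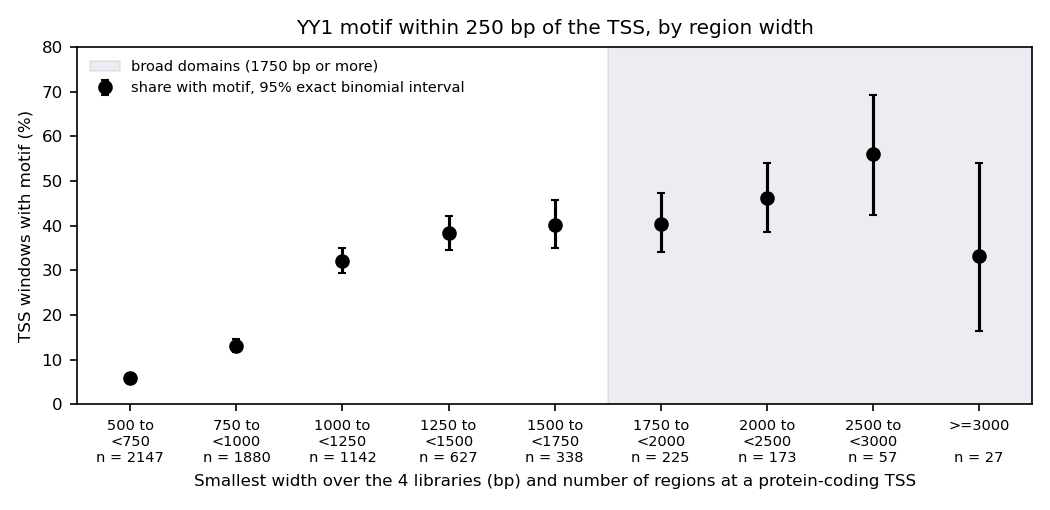
Share of protein-coding TSS windows with the YY1 motif within 250 bp (vertical axis, %) by the smallest width of the region over the 4 libraries (horizontal axis, bp), with 95% exact binomial intervals. The share climbed from 5.78% to 40.2% below the limit of 1.75 kb, and the shaded broad domains lay between 33.3% and 56.1%.

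Over whole regions, which were longer in the domains (median 3151 bp against 1528 bp), 410 of the 517 domains (79.3%) held a match, against 32.9% of the other regions. Per length, the domains held 0.440 matches per kb and the others 0.252. A single domain near Gm21738 held 32 matches and was 84.5% soft-masked repeat sequence, and without it the domains held 0.423 matches per kb. No match lay in 107 domains, among them those of Klf13, Ubtf, Zfp36l1, Hnrnpk and Sp3.

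Nearly all broad domains lay at promoters of protein-coding genes. The centre lay within 3 kb of a protein-coding TSS in 482 of 517 domains (93.2%) and in 6134 of 7072 other regions (86.7%), with an odds ratio of 2.11 (interval 1.48 to 3.08, adjusted p = 1.02e-05 in Fisher's exact test). With a distance of 1 kb the shares were 87.6% and 84.5% and the difference did not pass the test (odds ratio 1.30 with interval 0.989 to 1.73, adjusted p = 0.0720 in Fisher's exact test). Against regions of 1.25 to under 1.75 kb the direction turned, since 95.9% of those lay at a protein-coding TSS (odds ratio 0.585 with interval 0.359 to 0.960, unadjusted p = 0.0253 in Fisher's exact test). This comparison was chosen after the data were examined, and its p-values were not adjusted among themselves. The remaining domains comprised 22 with only a TSS of another kind within 3 kb and 13 with no TSS within 3 kb. A protein-coding TSS was that of a protein-coding transcript. The 22 thus include domains near other transcripts of protein-coding genes, such as Sfi1 and Sp110. Domain centres lay in an annotated exon in 248 cases, in an intron in 177 and between genes in 92.

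CpG-rich promoters, with a ratio of observed to expected CpG of at least 0.6 and a GC content of at least 50% in the 500 bp on each side of the TSS, made up 92.5% of the 482 domain promoters and 85.3% of the others (odds ratio 2.14 with interval 1.51 to 3.11, adjusted p = 8.70e-06 in Fisher's exact test). The CpG-rich run that contained the TSS had a median length of 1150 bp in the domains and 800 bp in the others. In windows of 250 bp on each side the shares were 92.3% and 89.6% and the difference did not pass the test (odds ratio 1.40 with interval 0.988 to 2.03, adjusted p = 0.0756 in Fisher's exact test). Regions of 1.25 to under 1.75 kb had 92.4% CpG-rich promoters.

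Promoter type was read from the TSS on the other strand within 1 kb upstream. A head-to-head pair of protein-coding genes was present at 63 of 482 domain promoters (13.1%, 10.2% to 16.4%) and at 666 of 6134 others (10.9%, 10.1% to 11.7%), and the difference did not pass the test (odds ratio 1.23 with interval 0.920 to 1.63, adjusted p = 0.151 in Fisher's exact test). The difference passed the test with a limit of 1.5 kb (odds ratio 1.33, adjusted p = 0.0122), against regions with a peak in at least 2 libraries (1.51, adjusted p = 0.00456) and without XistΔ/Δ replicate 1 (1.36, adjusted p = 0.00492), by Fisher's exact test. Among the pairs were Hnrnpa2b1 with Cbx3, 515 bp apart, which encode an RNA-binding protein and the heterochromatin protein HP1 gamma. Hnrnpa1 with Cbx5, 678 bp apart, was another gene pair of the same kind with HP1 alpha. Further pairs were Mcm9 with Asf1a, 109 bp apart, an MCM family helicase and a histone chaperone, and Ddx5 with Cep95, 720 bp apart. An antisense TSS of any gene lay within 1 kb at 128 domain promoters (26.6%) and 1277 others (20.8%), an odds ratio of 1.38 (interval 1.10 to 1.70, adjusted p = 0.00473 in Fisher's exact test). That difference lay between 500 and 1000 bp, where the nearest antisense TSS of 40 domain promoters (8.30%) and 122 others (1.99%) was found. Within 500 bp the shares were 18.3% and 18.8% (odds ratio 0.963 with interval 0.749 to 1.23, adjusted p = 0.809 in Fisher's exact test). The 65 domains with a noncoding antisense partner only included Yy1 (partner Gm34220, 230 bp), Kmt2e (5031425E22Rik, 172 bp), Setd1b (AI480526, 527 bp), H3f3a (H3f3aos, 242 bp) and Srsf3 (Gm16196, 60 bp).

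**Figure D2:**
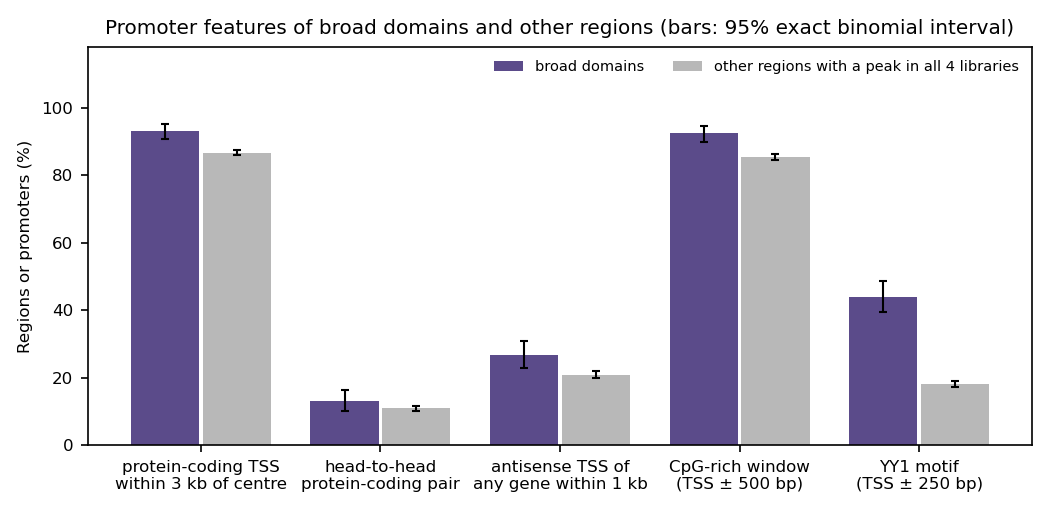
Shares of regions or promoters (vertical axis, %) with each of 5 features (horizontal axis) in broad domains and in other autosomal regions with a peak in all 4 libraries, with 95% exact binomial intervals as bars. The motif share was 44.0% against 18.2%, and the intervals of head-to-head pairs overlapped (13.1% against 10.9%).

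Broad domains reached further into the gene than upstream of it. Where the widest peak of a library spanned the annotated 5′ end of the gene, its median reach in WT replicate 1 was 924 bp upstream and 1452 bp downstream over 420 domains, and 357 and 635 bp over 4920 other regions. In XistΔ/Δ replicate 2 the domains reached 1087 bp upstream and 1720 bp downstream. More reach downstream than upstream was found in 71.2% to 76.2% of the domains over the 4 libraries, and in 67.7% to 76.7% of the other regions. Domains were thus longer on both sides of the TSS. The balance of the sides varied between genes. In WT replicate 1 the peak at Brd2 ran 432 bp upstream and 5223 bp downstream, the peak at Jarid2 112 bp upstream and 4415 bp downstream, and the peak at Arid2 3646 bp upstream and 1360 bp downstream.

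**Figure D3:**
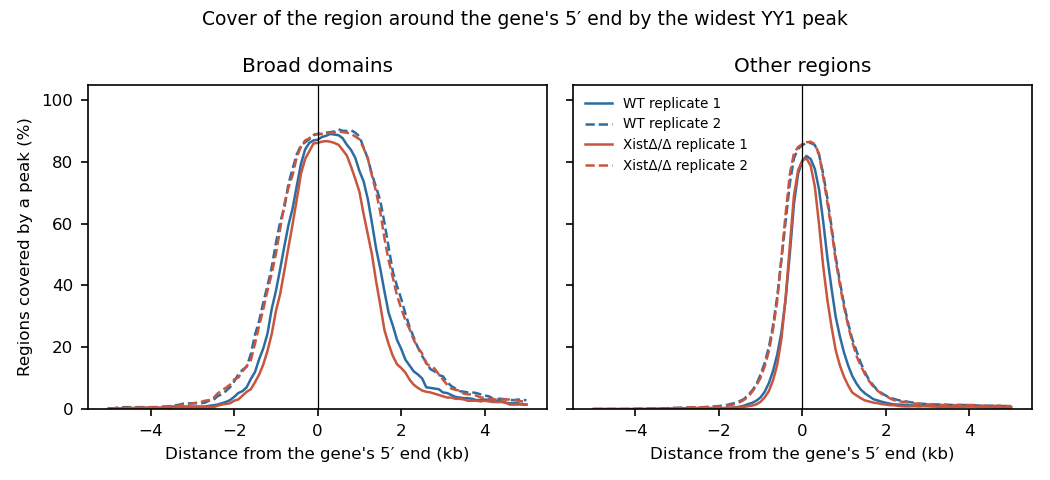
Share of regions covered by the widest YY1 peak (vertical axis, %) at each distance from the annotated 5′ end of the gene (horizontal axis, kb, on the gene's strand) in broad domains (left) and other regions (right) with a protein-coding TSS within 3 kb, 1 line per library. The curves of the domains are wider on both sides, with a median reach of 1452 bp downstream in WT replicate 1 against 635 bp in the other regions, and the replicate 2 libraries are wider than the replicate 1 libraries in both genotypes.

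Peaks in the domains had a median width of 2362 and 2953 bp in WT replicates 1 and 2 and of 2073 and 2861 bp in XistΔ/Δ replicates 1 and 2, against 1003, 1436, 896 and 1421 bp over the 7589 regions. The smallest width over the libraries was under 2000 bp in 233 domains and at least 3000 bp in 36. It was that of XistΔ/Δ replicate 1, the library with the fewest tags, in 382 of the 517 domains. Just inside the limit lay the domains of Ranbp2, Vapa and Pafah1b1, each with a smallest width of 1755 bp, and just outside lay the regions of Akap8 and Gstcd (1747 bp) and Khdc4 (1746 bp). A library had a single peak in the region, in all 4 libraries, in 385 domains.

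Of the 12 widest domains, 5 had no protein-coding TSS within 3 kb of the centre and 1 lay 1407 bp from a TSS of Sfi1. The Sfi1 locus on chromosome 11 (chr11:3129110-3200288) held 4 domains. The widest of them, in an intron of Sfi1, had peaks of 28311 and 28166 bp (WT) against 28172 and 28299 bp (XistΔ/Δ), and its neighbour had peaks of 19372, 19543, 19492 and 19574 bp in the same order. The third, at Gm11399, varied more, with 17432 and 18381 bp (WT) against 12838 and 19827 bp (XistΔ/Δ). Domains were also found at BC018473 (chr11:116749888-116759374; 9408 and 9301 bp in WT, 7695 and 9394 bp in XistΔ/Δ), at Gm26917 (chr17:39842698-39849075; 6113 and 6258 bp, 6266 and 6231 bp) and near Gm48265 (chr13:119612717-119617740; 4990 and 5020 bp, 4878 and 4751 bp). Widths differed by under 5% over the 4 libraries in 3 of the 517 domains, the 2 at Sfi1 and that at Gm26917. The peak-calling command named no input library, so YY1 enrichment and any other local excess of reads cannot be told apart at these loci. The domains at Gm26917 and Gm48265 held no motif match.

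The other 6 of the 12 widest domains lay at protein-coding promoters. Brd2 encodes a bromodomain protein that reads acetylated histones, and its domain (chr17:34116668-34123843) had peaks of 5656 and 6137 bp (WT) against 5003 and 6512 bp (XistΔ/Δ). At Chd2, which encodes a chromatin remodelling helicase, the widths were 5238 and 6173 bp against 4974 and 6305 bp (chr7:73536677-73543042). Chd2 was followed within 83.3 kb by 3 further domains, at 1810026B05Rik (4158 and 5463 bp, 3660 and 5317 bp) over the TSS of Gm44734 (3959 and 4855 bp, 3439 and 4379 bp) and 9146 bp from that TSS (3103 and 3677 bp, 3002 and 3356 bp). Arid2, a subunit gene of the PBAF remodelling complex, had widths of 5007 and 5291 bp (WT) against 4861 and 5522 bp (XistΔ/Δ) (chr15:96283505-96289053). Zc3h4 had 4945 and 5599 bp against 4526 and 7851 bp. The acidic chromatin proteins prothymosin alpha (Ptma) and Anp32a followed, with 4624 and 5097 bp against 4396 and 5191 bp at Ptma and 4400 and 4742 bp against 4296 and 4573 bp at Anp32a. The genotypes overlapped in width at these 6 domains.

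The share of genes with a broad domain ran from 0% to 55.6% over the lists looked at. Domains were assigned to 487 of 20780 autosomal protein-coding genes (2.34%), which were 7.37% of the 6608 genes with a peak in all 4 libraries. The lists below were chosen with earlier results of these data known, and no list was tested. Of 62 chromatin and histone modifier genes, 58 had a peak in all 4 libraries and 19 (30.6%) a broad domain. Besides Brd2, Chd2 and Arid2 these were led by Kmt2e, by the H3K4 methyltransferase gene Setd1b (4906 and 5985 bp in WT, 3984 and 6013 bp in XistΔ/Δ), by the BAF subunit gene Arid1a (6290 and 6983 bp, 3230 and 4599 bp) and its relative Arid1b. Of 54 splicing factor genes of the SR, hnRNP, SF3, U2AF and snRNP families, 46 had a peak and 16 (29.6%) a domain. The widest of these were at Srsf3 (3408 and 3946 bp, 3449 and 4234 bp), Hnrnpa2b1 (3790 and 4577 bp, 3196 and 4587 bp), Hnrnpa0 (3441 and 3996 bp, 2746 and 3297 bp), Hnrnpu, Srsf2 and Hnrnpk. Cohesin and Ctcf genes had 5 domains among 9 genes, at Stag1 (2676 and 2968 bp, 2348 and 2488 bp), Nipbl, Rad21, Pds5a and Smc3, genes of the ring that holds DNA in loops and of its loader and regulators. Of 14 Yy1 and INO80 complex genes, 12 had a peak and 2 a domain, Yy1 and Ino80 (2122 and 2408 bp, 2271 and 2446 bp).

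Genes of early response and RNA decay, which are induced or cleared quickly, had 11 domains among 46 genes (23.9%). Klf13 had 3784 and 4325 bp (WT) against 3890 and 4566 bp (XistΔ/Δ), and Dusp6, a phosphatase of the ERK kinases, had 3871 and 3821 bp against 2454 and 3742 bp. Zfp36l1, which binds AU-rich mRNAs and leads to their decay, had 2301 and 4923 bp against 2285 and 4839 bp, so that its widths were alike within a replicate number and apart between the numbers. Btg1, Mcl1, Jund, Atf4, Klf6, Txnip, Zfp36l2 and Fosl2 were the others.

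Of 51 blood transcription factor genes, 37 had a peak in all 4 libraries and 4 (7.84%) a domain. Among those with a peak this was 10.8%, beside 7.37% of all genes with a peak. Ikzf1, which encodes the lymphoid factor Ikaros, had 1873 and 6729 bp (WT) against 2205 and 7369 bp (XistΔ/Δ), and Elf1, an ETS factor, had 2395 and 4811 bp against 2202 and 4947 bp. At both, each replicate 2 library was over 4000 bp and each replicate 1 library under 2500 bp. Runx1 had 3710 and 4592 bp against 2066 and 3317 bp, and Meis1 had 1764 and 2540 bp against 1790 and 1883 bp. Among the 10 progenitor markers, Runx1 and Meis1 had domains, while Myb, Lmo2, Tal1, Spi1 and Cebpa had peaks whose smallest width over the libraries was at most 1310 bp (Tal1). Kit had a peak in 2 libraries, and no region with a peak in at least 2 libraries was assigned to Cd34 or Gata2.

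Ribosomal protein genes often had peaks, and few of those with a peak had a domain. Of 79 cytosolic ribosomal protein genes, 68 (86.1%) had a peak in all 4 libraries and 2 (2.53%) a domain, Rpl13a (2444 and 2805 bp, 1907 and 2733 bp) and Rpl3. The 2.53% was near the 2.34% of all autosomal protein-coding genes. Among those with a peak the share was 2.94%, beside 7.37% of all genes with a peak. Mitochondrial ribosomal protein genes had 55 of 78 with a peak and 1 domain (Mrpl51), which was 1.28% of the genes and 1.82% of those with a peak. In the other lists, proteasome genes had a peak at 32 of 44 and 2 domains (Psma3 and Psmb5), heat shock and chaperone genes 41 of 70 and 1 domain (Hspa8), and ubiquitin genes 3 of 4 and 1 domain (Ubb). Translation factor genes had 44 of 65 with a peak and 6 (9.23%) a domain, led by Eif4g2 (3157 and 4620 bp, 2395 and 3808 bp). Cell cycle regulators had 24 of 34 and 1 domain, at Cdkn1b, which encodes the kinase inhibitor p27 (2554 and 3431 bp, 1801 and 3519 bp). Cytokine receptor and signalling genes had 22 of 36 and 2 domains (Spred1 and Csf2ra), and clustered histone genes 28 of 67 and 5 domains (Hist2h2ac, Hist1h3a, Hist1h1c, Hist2h3b and Hist1h2ai). Genes named Zfp, Zbtb, Zkscan or Zscan had 191 of 455 and 21 with a domain (4.62%). Zfp36l1 and Zfp36l2 matched this name and are CCCH genes. No domain was assigned to the 16 snoRNA host genes, of which 6 had a peak. Near-identical copies among histone and ribosomal protein genes can share reads, so peaks at them are uncertain.

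**Figure D4:**
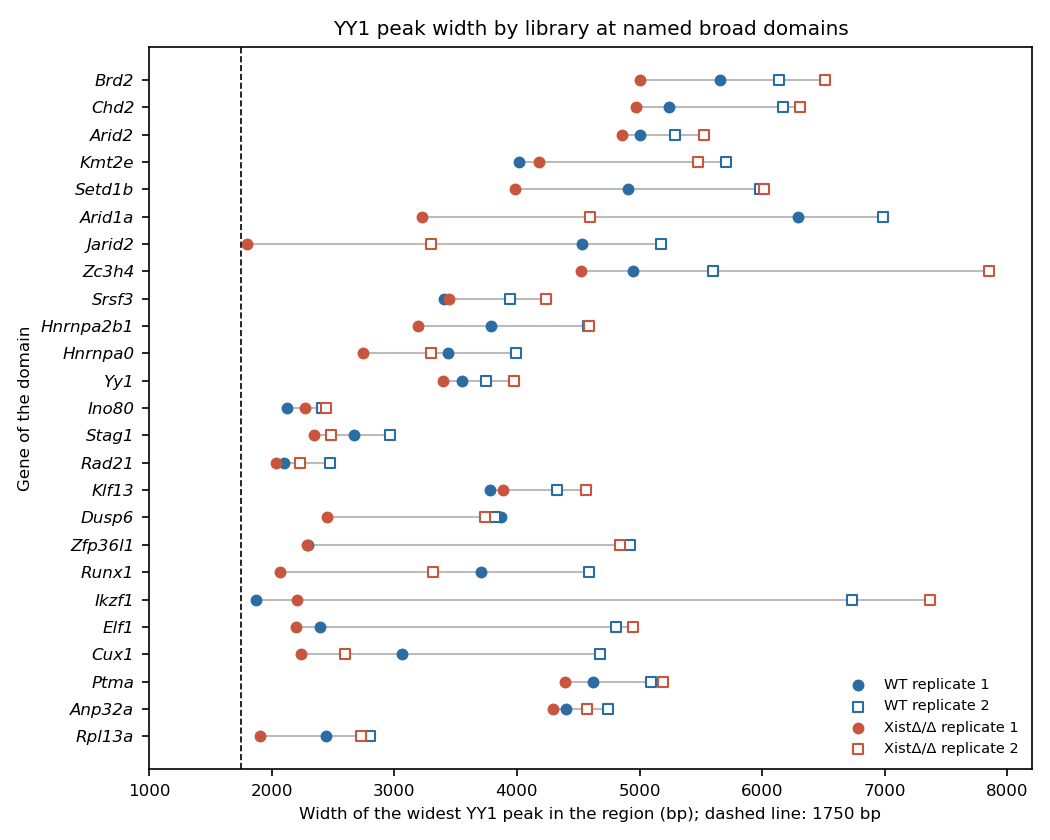
Width of the widest YY1 peak (horizontal axis, bp) in each of the 4 libraries at 25 broad domains (vertical axis, gene), with WT in blue, XistΔ/Δ in red, replicate 1 filled and replicate 2 open, and the limit of 1.75 kb dashed. Within a genotype replicate 1 lay left of replicate 2 except in WT at Dusp6, and Arid1a, Jarid2, Hnrnpa0, Stag1, Dusp6, Runx1 and Cux1 had both XistΔ/Δ widths under both WT widths.

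Domains with noncoding genes included the loci of abundant nuclear RNAs and of microRNA clusters. A domain over the TSS of Malat1 (chr19:5797856-5805283) had 4326 and 6681 bp (WT) against 3001 and 7359 bp (XistΔ/Δ), and one over the TSS of Neat1, the scaffold RNA of paraspeckles (chr19:5841360-5848483), had 2518 and 7106 bp against 3074 and 6167 bp. At the precursor gene of the miR-17 cluster, Mir17hg, widths were 2465 and 3136 bp against 2509 and 2440 bp. The locus of Mir142hg, the precursor of the blood microRNA miR-142, held 2 domains, of which that over the TSS of Mir142hg and Mir142 had 2742 and 3649 bp against 2074 and 5888 bp and the other 3634 and 4001 bp against 2421 and 4053 bp. The 4 widest domains with no TSS within 3 kb lay in the Chd2 region beyond Gm44734, 17496 bp from Zfp239, 23786 bp from Gm5218 and 5327 bp from Psma3. Their smallest widths were 3002, 2816, 2518 and 2486 bp. Fewer of the 13 such domains (61.5%) than of the head-to-head promoters (85.7%) held a motif match anywhere, as a description.

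Width was then compared by genotype. With 2 libraries against 2, an exact permutation test cannot give a p-value below 0.33, and width chose the members, so no test was made. Both WT libraries had wider peaks than both XistΔ/Δ libraries in 44 domains (8.51%), beside 490 of 7589 (6.46%) of all regions with a peak in all 4 libraries. Both XistΔ/Δ libraries had wider peaks in 4 domains (0.774%), beside 131 (1.73%) of all regions. The median log2 ratio of the mean width in XistΔ/Δ to that in WT was -0.07 in the domains (ratio 0.95) and -0.06 over all regions. Within replicate numbers the median log2 ratio of the domains was -0.12 in replicate 1 and -0.02 in replicate 2. Within each genotype depth moved with width, since replicate 2 libraries had the wider peak in 481 domains in WT (median ratio of replicate 2 to replicate 1 1.21) and in 508 in XistΔ/Δ (1.29). The part of depth in the difference between genotypes was not tested.

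Single libraries decided these counts and the sign of the ratio. The domains with wider peaks in WT numbered 323 of 598 without WT replicate 1 (54%, beside 48.8% of all regions) and 52 of 518 without WT replicate 2 (10%, beside 8.13%). They numbered 111 of 983 without XistΔ/Δ replicate 1 (11.3%, beside 6.89%) and 386 of 519 without XistΔ/Δ replicate 2 (74.4%, beside 62.5%). Those with wider peaks in XistΔ/Δ numbered 13 (2.17%, beside 2.77%), 127 (24.5%, beside 31%), 413 (42%, beside 47.5%) and 5 (0.963%, beside 2.1%) in the same order. The median log2 ratio was -0.20, 0.07, 0.09 and -0.29, beside -0.26, 0.19, 0.20 and -0.40 over all regions.

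The counts and the sign of the ratio changed with the scale. When each width was replaced by its percentile among all regions of the same library, both XistΔ/Δ libraries ranked higher in 55 domains (10.6%), beside 14.1% of all regions, and both WT libraries in 32 (6.19%), beside 13.6%. When each width was divided by the median of its library, the median log2 ratio was 0.01 in the domains. Of the 44 domains with wider peaks in WT, 12 also ranked higher in WT by percentile, and of the 4 with wider peaks in XistΔ/Δ, 0 ranked higher there. Within both replicate numbers XistΔ/Δ was the narrower in 211 domains (40.8%), beside 33.1% of all regions, and the wider in 54 (10.4%), beside 15.9%.

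The 5 domains with the lowest ratio and no overlap also had lower percentiles in XistΔ/Δ. Percentiles are ranks of the widths that chose these 5, so they add no separate support. For Arid1a the percentiles were 99.9 and 99.9 (WT) against 99.6 and 99.3 (XistΔ/Δ). Jarid2 encodes a cofactor of the Polycomb repressive complex PRC2, and its peaks were 4528 and 5175 bp (WT) against 1796 and 3298 bp (XistΔ/Δ). The means were 4852 ± 457 bp (SD, n = 2) and 2547 ± 1062 bp (SD, n = 2), a log2 ratio of -0.93, with -1.33 in replicate 1 and -0.65 in replicate 2. At Arid1a (chr4:133751044-133758156) they were 6636 ± 490 bp and 3914 ± 968 bp (SD, n = 2 each), a log2 ratio of -0.76. The Arid1a region held 1 peak in each WT library and 2 in each XistΔ/Δ library, of which only the widest was measured. Cux1, a homeobox factor gene, had 3064 and 4674 bp against 2244 and 2601 bp (-0.68), Runx1 a log2 ratio of -0.63 (-0.84 in replicate 1, -0.47 in replicate 2), and Zcchc2 4618 and 5198 bp against 2000 and 4560 bp (-0.58, with -1.21 in replicate 1 and -0.19 in replicate 2). The ratio at Zcchc2 thus rested mainly on XistΔ/Δ replicate 1. Of 16 splicing domains, 3 (Sf3b3, Hnrnpa0 and Hnrnpa3) were without overlap and narrower in XistΔ/Δ, as was 1 of 5 Ctcf and cohesin domains (Stag1). The share was 8.51% over all domains and 6.46% over all regions, and the lists were not tested. By percentile the genotypes overlapped at Hnrnpa0.

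The 4 domains with wider peaks in XistΔ/Δ had small ratios. They lay at Nfic (1799 and 1937 bp in WT, 2066 and 2313 bp in XistΔ/Δ, log2 ratio 0.23), a nuclear factor I gene, at Gm21738 (3770 and 4027 bp, 4192 and 4181 bp, 0.10), at Gm11400 in the Sfi1 locus (2206 and 2224 bp, 2255 and 2359 bp, 0.06) and near Gm28502 (1911 and 1940 bp, 1965 and 2039 bp, 0.06). The last 3 include the 2 domains of which over 50% was soft-masked repeat sequence (84.5% and 57.4%).

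**Figure D5:**
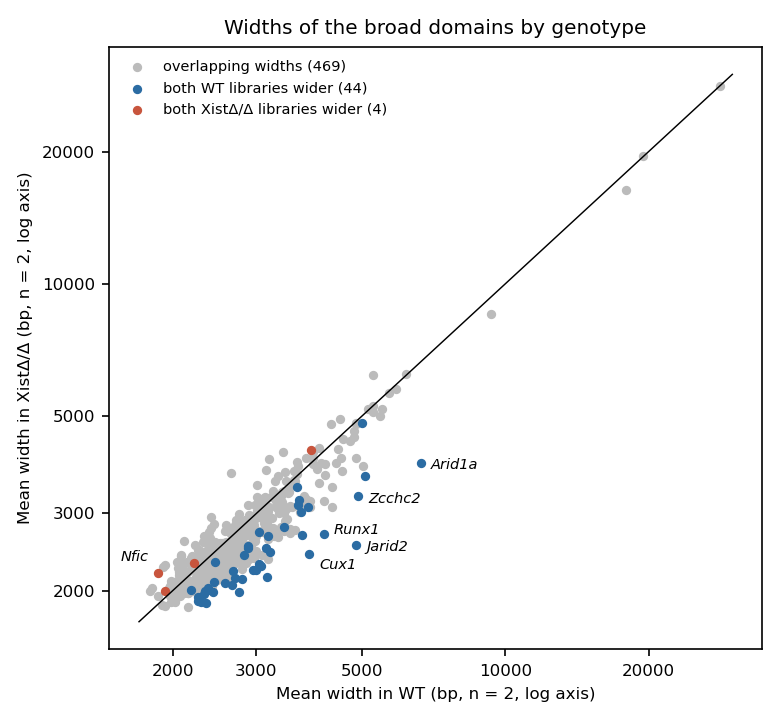
Mean width in XistΔ/Δ (vertical axis, bp, log scale, n = 2) against mean width in WT (horizontal axis, bp, log scale, n = 2) at the 517 broad domains, coloured by whether the libraries of the genotypes overlap in width, with the line of equality. Most domains lay at or just under the line (median ratio 0.95), 44 had both WT libraries wider and 4 both XistΔ/Δ libraries.

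By promoter type, both WT libraries were wider in 8 of 63 domains at head-to-head pairs (12.7%), in 3 of 65 with a noncoding antisense TSS (4.62%) and in 30 of 354 without an antisense TSS (8.47%), with median log2 ratios of -0.10, -0.07 and -0.07. The share was 8.51% over all domains and 6.46% over all regions with a peak in all 4 libraries. Shares over all regions of each type are not given, and differences between the types were not tested.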

How the data were processed

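YY1 ChIP-seq used chromatin digested with micrococcal nuclease. Per the methods of the study and, for the versions, the submitters' processing notes, reads were trimmed with Trim Galore and aligned to mm10 with Bowtie2 2.3.5.1, reads of low mapping quality (SAMtools 1.10) and duplicates (Picard 2.0.1) were taken out, and HOMER 4.9.1 called the peaks. The file headers show a call for each library on its own, without pooling or input, in which 500 bp peaks were stitched into longer regions at a false discovery rate of 0.001 and with a 4-fold excess over the surroundings. Headers give tag thresholds of 22, 33, 22 and 37 per peak for WT replicates 1 and 2 and XistΔ/Δ replicates 1 and 2.

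The deposited lists give positions and a score that is 1 for each peak and was not used, so strength of binding was not measured. The authors' lists were merged, annotated with GENCODE M21 and read against GRCm38 (mm10 coordinates) with Python 3.11.15, pandas 2.3.3, numpy 2.4.6 and SciPy 1.17.1. Code was tested on simulated data. Features were compared by two-sided Fisher's exact tests with exact conditional 95% intervals, adjusted by Benjamini-Hochberg over 5 features. The methods speak of biological replicates, and the labels do not say that they came from separate mice. The labels' replicate numbers were used, although the headers number 3 of the 4 libraries otherwise, and a number in the headers' directory names is shared by libraries of the same replicate number. The members, lists and tests were chosen with earlier results of these data known. Named domains were the 12 widest, the 5 lowest and 5 highest ratios without overlap (the fifth highest, Gm48265, was narrower in XistΔ/Δ), up to 6 per list, 3 on each side of the limit and 4 without a TSS. Limits on width, windows, distances, the compared regions and each library were varied. In each such setting, an adjusted p-value was computed together with the main p-values of the other features. The 8 histone samples were not analysed here.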

Additional observations from a re-analysis of the deposited data

Results flagged for a closer look

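The X chromosome lay outside the choice of members. Of its 167 regions with a peak in all 4 libraries, 9 (5.39%) met the limit of 1.75 kb in each library, against 6.81% of autosomal regions, as a description, since width is what the limit uses. They lay at Stag2, Kdm6a, Hcfc1, Ddx3x, Morf4l2, Zfx, Rlim and Jpx and near Gm16481. Ddx3x had peaks of 2464 and 2939 bp (WT) against 2865 and 3810 bp (XistΔ/Δ) (log2 ratio 0.31), Kdm6a had 3677 and 4141 bp against 3065 and 3957 bp (-0.15), and Stag2 had 3737 and 3819 bp against 3664 and 3654 bp (-0.05). The genotypes overlapped in width at Ddx3x and Kdm6a and did not at Stag2. Within both replicate numbers Ddx3x alone was wider in XistΔ/Δ, while Stag2, Kdm6a, Hcfc1 and Morf4l2 were narrower. The paper shows Ddx3x as an example of increased YY1 binding at a promoter in Lin− cells, by read signal and not by width.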

How the results depend on the processing

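A limit of 1500 bp gave 871 domains and a limit of 2000 bp 284. Leaving out 1 library gave 518 to 983 domains, with 983 without XistΔ/Δ replicate 1. The share at a protein-coding TSS no longer passed the test with 2000 bp (odds ratio 1.42) or a TSS within 1 kb (1.30), nor did CpG-rich promoters in windows of 250 bp (1.40). Head-to-head pairs passed it with 1500 bp (1.33), against regions in at least 2 libraries (1.51) and without XistΔ/Δ replicate 1, and their odds ratio ranged from 1.17 to 1.36 without 1 library. Antisense TSSs within 500 bp reversed (0.963). Against regions of 1.25 to under 1.75 kb, a comparison chosen after the data were examined, protein-coding TSSs (0.585), head-to-head pairs (0.974) and antisense TSSs (0.975) reversed, and CpG-rich promoters (1.01) and the motif (1.23) no longer passed. Among CpG-rich promoters only, also chosen afterwards, the odds ratio was 3.48 for the motif and 1.27 for antisense TSSs. The causes were not tested.

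The replicate block, counting domains wider in the same genotype within both replicate numbers, gave 54 domains for XistΔ/Δ and 211 for WT. With the widths of all peaks of a library in a region summed, 33 domains were wider in WT (6.38%, beside 5.88% of all regions). By that measure 4 were wider in XistΔ/Δ (0.774%, beside 1.67%). By percentile 55 ranked higher in XistΔ/Δ (10.6%, beside 14.1% of all regions), a count that the choice of members in part set. Leaving out 1 library gave 5 to 413 domains wider in XistΔ/Δ (0.963% to 42%, beside 2.1% to 47.5% of all regions). It gave from 52 (10%, beside 8.13% of all regions) to 386 (74.4%, beside 62.5%) wider in WT. The median log2 ratio of -0.07 was -0.08 under the replicate block and 0.01 relative to the library median, and from -0.29 to 0.09 without 1 library. Same-numbered libraries deviated together across the domains (r = 0.33) and over all regions (r = 0.30), but 2 pairs do not show that the numbers pair the samples. XistΔ/Δ replicate 1, with the fewest tags, had the smallest width in 382 domains and WT replicate 1, with nearly as few, in 127. The part of depth was not tested.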

Other observations

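Within 100 kb of each other, 103 of the 517 domains formed 45 groups, a count with no comparison to other regions. Runs of 3 included those at Cox20, Hnrnpu and Efcab2, at Mgat4b, Maml1 and Hnrnph1, at Ubn2, Fmc1 and Luc7l2, and at Gpr19, Cdkn1b and Lockd. By chromosome, the share of regions with a peak in all 4 libraries that were broad domains ranged from 4.74% on chromosome 14 to 8.79% on chromosome 17, as a description.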
